A study of Rattus norvegicus with 4 samples.

Results

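The chemokines, interleukins and tumour necrosis factor (TNF) family ligands, together with their receptors, were examined in rat Sertoli cells cultured with or without cAMP. The members were all genes on the array whose platform symbol begins with Cxcl, Ccl, Cxcr, Ccr or Il followed by a number, or with Tnfsf or Tnfrsf, together with Cx3cl1, Cx3cr1 and Tnf. This gave 112 genes with 142 probe sets among 14217 named genes, and each gene was represented by the probe set with the highest mean over the 4 arrays. Sertoli cells, the somatic cells that line the seminiferous tubule and nurse the germ cells, came from 20-day-old male Sprague-Dawley rats. They were plated serum-free in Ham's F-12 medium with 0.01% BSA at 32 degrees and collected after 72 h, with cAMP on 2 arrays and without treatment on 2 arrays. Which form of cAMP was used, and at what dose, is not stated in the sources used here. The labels call the replicates biological but name no separate cultures or animals, so p-values reflect only how far these samples spread, which may be technical.

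Chemokines are small secreted or membrane-bound proteins that steer leukocytes through G protein-coupled receptors. Interleukins act mostly through receptor chains that recruit Janus kinases (JAK) and STAT factors, or, in the interleukin-1 branch, through MyD88 and IRAK kinases. TNF family ligands act through receptors that lead to the transcription factor NF-kappaB or to caspases. In the testis these cytokines pass between Sertoli cells, germ cells and resident macrophages, and Sertoli cells themselves are a known source of several of them. cAMP is the second messenger of follicle-stimulating hormone in these cells and acts in large part through protein kinase A and the transcription factor CREB.

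Values are probe set signals, linear intensities that the authors had scaled to the same trimmed mean of 125 on each array. A signal over 14.2, the highest value of 27 Bacillus control probe sets, is called above background here. By this measure 26 members were above background on all 4 arrays, and 44 on both arrays of at least 1 group. A further 23 members were above background on some array but not on both of any group, and 45 on none. Both arrays of at least 1 group were above background for 74.9% of all named genes. Among the 44, Il24, Il6, Il4r, Il1rap, Tnf, Cxcl2 and Il17rc, 7 genes, were above background on both cAMP arrays and on no control array. The same held for 1.35% of all named genes. Conversely Il17b, Tnfrsf17, Cxcl12 and Il34, 4 genes, were above background on both control arrays and on no cAMP array. That held for 1.25% of all named genes. These counts use 1 probe set per gene. Another probe set of Tnfrsf17 was at 14.8 and 16.6 with cAMP and at 12.6 and 18.1 in controls. Another of Cxcl12 was at 12.5 and 15.9 with cAMP and at 12.5 and 25.5 in controls. On the cAMP side, another probe set of Il1rap was at 13 and 15 with cAMP and at 8.3 and 6.9 in controls. A second of Tnf was at 2.4 and 21.6 with cAMP and at 1.1 and 1.7 in controls. Both were thus above background on cAMP replicate 2 only. The scatter of group means shows most of the family in the corner below background.

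**Figure D1:**
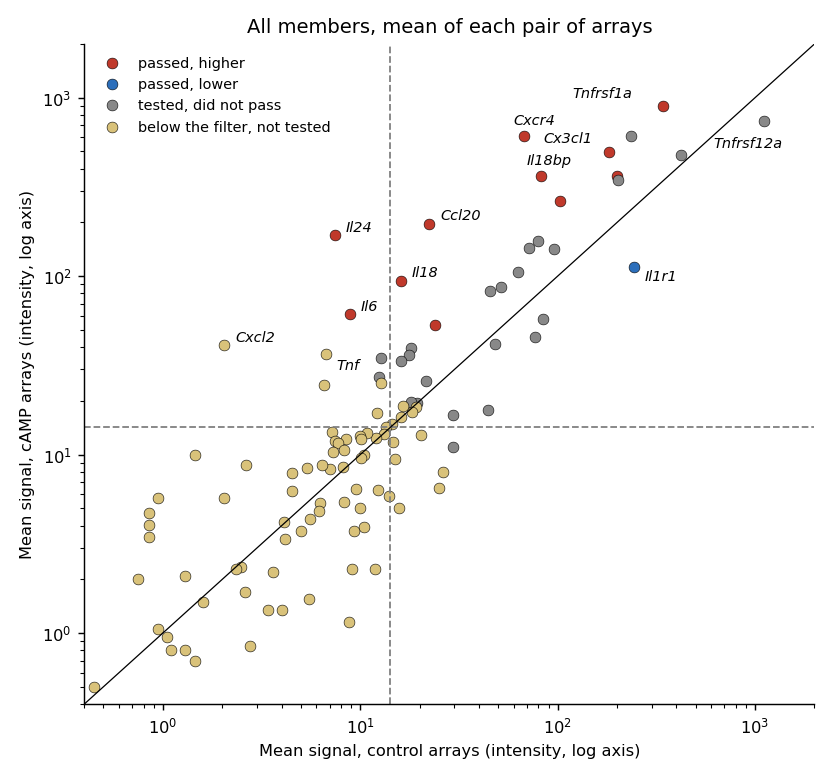
Mean signal of each of the 112 members on the 2 cAMP arrays (vertical, log axis) against the mean on the 2 control arrays (horizontal, log axis). Dashed lines mark the background of 14.2 and the diagonal marks equal means. The 11 members that passed as higher (red) lie above the diagonal, Il1r1 (blue) lies below it, and the 76 members under the filter (yellow) gather in the lower left.

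Of the 112 members, 36 passed the filter on dim probe sets and were tested with limma, a linear model fitted across all 18625 tested probe sets. The other 76 were not tested. With cAMP 11 members rose, 1 fell and 24 did not pass at an adjusted p of 0.05. The 11 were 30.6% of the tested members, beside 8.27% of all 10035 named genes tested, and the 1 that fell was 2.78%, beside 7.16%. The cAMP arrays both lay above both control arrays for 24 of the 36 tested members, beside 28.8% of named genes, and both below for 5, beside 32.6%. The median log2 difference, cAMP minus control on the log2(signal + 16) scale, was 0.66 for the tested members and -0.03 for all named genes tested. These shares describe the members that passed the filter. Il24, Il6, Il4r and Il1rap, 4 of them, passed it with signal above background on the cAMP arrays only, and Il17b with signal above background on the control arrays only.

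The counts depended on the arrays. Leaving out cAMP replicate 1 gave 6 higher and 0 lower members by limma, and leaving out cAMP replicate 2 gave 5 and 0. Without the adjustment, 3 members were lower at the 0.05 level in the first case and 1 in the second. Leaving out control replicate 1 gave 16 higher and 2 lower, with Cxcl1, Cxcl10, Cxcl16, Il10rb and Il6r added as higher and Tnfsf12 as lower. Leaving out control replicate 2 gave 12 higher and 3 lower, with Cxcr5 and Il15 added as higher and Il13ra2 and Tnfrsf12a as lower. Cxcr4, Ccl20, Il24, Il18 and Il18bp passed whichever array was left out. Il6 was lost only without cAMP replicate 2. Tnfrsf1a, Tnfrsf25, Cx3cl1, Il17ra, Il17re and Il1r1 were each lost when either cAMP array was left out, and Tnfrsf25 without control replicate 2 as well.

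**Figure D2:**
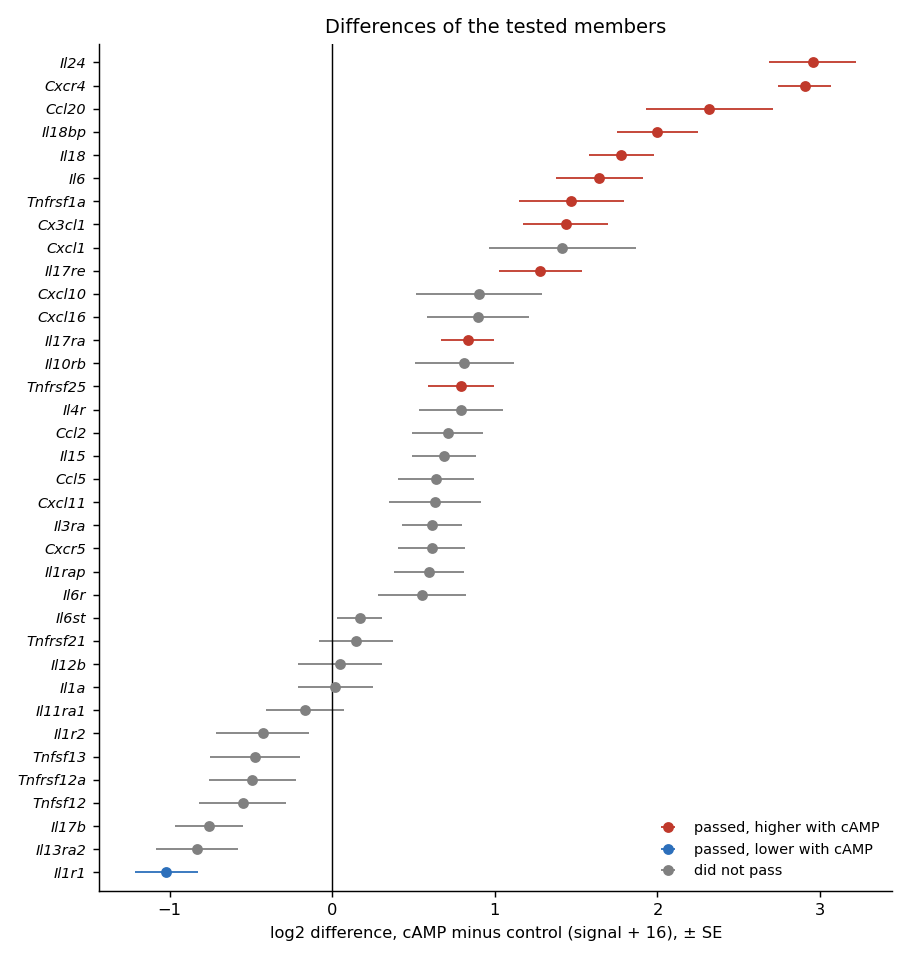
The log2 difference (cAMP minus control, log2 of signal + 16) of each of the 36 tested members with its standard error from limma (horizontal bars, n = 2 arrays per group). The 11 members that passed as higher (red) reach from 0.79 for Tnfrsf25 to 2.95 for Il24. Il1r1 (blue) stands at -1.02, and the grey members did not pass.

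The control arrays differed from each other within this family. Control replicate 1 was above control replicate 2 for 26 of the 36 tested members, or 72.2%, beside 56.0% of all named genes tested, and for 10 of the 11 members that rose. RNA quality, read as 3' over 5' signal of the actin control probe sets, was 1.86 and 1.65 on cAMP replicates 1 and 2 and 1.80 and 2.25 on control replicates 1 and 2. Read from the Gapdh control probe sets instead, the cAMP arrays stood at 0.93 and 0.94 and the controls at 0.97 and 0.90, replicate 1 first. Control replicate 2 was thus the highest array by actin and the lowest by Gapdh. The part of RNA quality in the results was not tested.

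Of the Sertoli cell markers, 9 of the 11 on the array were above background on all 4 arrays and were tested, of which 3 rose, 1 fell and 5 did not pass. Inha, the inhibin alpha subunit, was at 4345 and 4733 with cAMP and at 951.6 and 1243 in controls (log2 difference 2.04 ± 0.15, adjusted p by limma = 0.000293). Dhh, a hedgehog ligand, rose by 0.74 ± 0.14 and Shbg, which binds sex steroids, by 0.69 ± 0.18. The transcription factor gene Gata4 was at 647.6 and 649.0 with cAMP and at 1290 and 1233 in controls, a log2 difference of -0.94 ± 0.12 (adjusted p by limma = 0.00297). The summed signal of the 11 markers was 24462 to 25287 with cAMP and 21057 to 22348 in controls, and without Inha 20118 to 20555 with cAMP and 20105 to 21105 in controls. Clusterin (Clu), at 6072 and 6410 with cAMP and at 6858 and 7278 in controls, did not pass, nor did Wt1, Amh, Cldn11 and Gja1.

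Of 17 macrophage and monocyte markers, 4 were tested and 0 passed by limma (0 higher and 1 lower without the adjustment), and their summed signal was 297 to 336 with cAMP and 302 to 452 in controls. The leukocyte antigen Ptprc did not exceed 2.8 with cAMP or 5.4 in controls, and Cd163, Itgam, Adgre1, Fcgr1a, Tyrobp, C1qa, C1qb and C1qc were also at or below background on every array. Of these macrophage markers Cd68 was at 28.1 and 45.2 with cAMP and at 4.1 and 6.2 in controls, and it was not tested. Mrc1, Lyz2, Cd14, Fcer1g and Aif1, 5 markers, were above background on all 4 arrays. Mrc1 was at 125.5 and 107.2 with cAMP and at 133.4 and 208.0 in controls. Lyz2 was at 26.4 and 27.6 with cAMP and at 47.3 and 108.6 in controls. Mrc1 and Lyz2 were thus lower with cAMP but did not pass, and the groups of Cd14, Fcer1g and Aif1 overlapped. None of the 15 markers of T, B, natural killer and mast cells on the array passed the filter. Of 12 germ cell markers 5 were on the array, of which 3 were tested and did not pass. The 5 summed to 2644 to 3614 with cAMP and 3535 to 3868 in controls. The germ cell gene Sycp3 was at 2258 and 1754 with cAMP and at 2340 and 2298 in controls. Tex101 and Ldhc were also above background on all 4 arrays, and Tnp1 and Prm1 on none. Of the 6 Leydig cell markers 1 was tested and did not pass, with sums of 73.5 to 90.1 with cAMP and 90.1 to 95.0 in controls. In 3 other lists a single gene, picked after its values were seen, made most of the gap between the groups. The 7 peritubular myoid markers summed to 182 to 221 with cAMP and 461 to 614 in controls, and without Tagln to 180 to 214 with cAMP and 197 to 270 in controls, which overlap. Tagln, a smooth muscle actin-binding protein, was at 1.3 and 7.4 with cAMP and at 344.5 and 264.3 in controls. Of the 5 tested in that list Tagln and Synpo2 fell, while the muscle filament gene Des rose, at 58.1 and 68.3 with cAMP and at 19.7 and 19.5 in controls (adjusted p by limma = 0.0102). The 7 fibroblast markers summed to 478 to 533 with cAMP and 118 to 119 in controls, but without the proteoglycan gene Dcn to 67.9 to 96.4 with cAMP and 102 to 117 in controls, lower with cAMP. Dcn was at 465.5 and 381.7 with cAMP and at 1.9 and 17.1 in controls, and was the gene of that list that passed, of 3 tested. The 5 endothelial markers summed to 97.1 to 98.5 with cAMP and 160 to 237 in controls, and without Kdr to 39.6 to 40.4 with cAMP and 29.3 to 49.6 in controls, which overlap. Kdr, a receptor of vascular endothelial growth factor, was at 57.5 and 58.1 with cAMP and at 187.3 and 130.8 in controls and fell, while Tek averaged 21.15 in both groups and Pecam1, Vwf and Tie1 were at or below background on every array. The part of these cell types in the results was not tested, and in bulk RNA fewer cells of a type and less RNA per cell cannot be told apart.

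Cxcr4, the receptor of the chemokine Cxcl12, was the chemokine receptor that rose. Its signal was 588.7 and 630.5 on the cAMP arrays and 73.7 and 61.6 on the control arrays. The groups did not overlap and each pair lay close together, a 9.04-fold difference with a log2 difference of 2.91 ± 0.16 (SE, n = 2 arrays per group) and an adjusted p by limma of 0.000101. Its 2 other probe sets rose as well, by 3.0 ± 0.19 and 3.10 ± 0.22 on the log2 scale. The ligand Cxcl12 was at 12.4 and 13.5 with cAMP and at 18.4 and 22.4 in controls, below the filter. Ackr3, an atypical receptor that also binds Cxcl12 and lies outside the family rule, was at 175.9 and 208.3 with cAMP and at 94.4 and 100.1 in controls. Ackr3 rose by 0.87 ± 0.17 (adjusted p by limma = 0.0174), and it was lost when either cAMP array was left out. Cxcr5, the receptor that guides B cells, was the other chemokine receptor tested, at 81.7 and 91.9 with cAMP and at 43.9 and 59.3 in controls, and it did not pass (adjusted p by limma = 0.0980). A second probe set of Cxcr5 did not exceed 12.3 with cAMP or 5.7 in controls. The other 10 chemokine receptors were below the filter, 8 of the family's 12 being at or below background on every array.

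Among the chemokines, Ccl20 and Cx3cl1 rose. Ccl20, which attracts dendritic and T cells through Ccr6, was at 105.5 and 286.2 on the cAMP arrays and at 23.5 and 21.3 on the control arrays. The cAMP arrays were far apart from each other but both above the controls, with a log2 difference of 2.32 ± 0.39 (adjusted p by limma = 0.00875). Without cAMP replicate 2 the difference was 1.66, and it still passed (adjusted p by limma = 0.0297). Cx3cl1, a membrane-anchored chemokine also called fractalkine, was at 479.3 and 513.5 with cAMP and at 235.9 and 126.4 in controls, a log2 difference of 1.44 ± 0.26 (adjusted p by limma = 0.0118). The receptors of both were dim: Ccr6 did not exceed 1.3 on any array, and Cx3cr1 was at 9.0 and 19.6 with cAMP and at 10.9 and 16.2 in controls.

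Of the neutrophil-attracting CXC chemokines Cxcl1 was tested and did not pass, while Cxcl2 and Cxcl3 were below the filter and not tested. Some were far apart in the mean. Cxcl1 was at 425.3 and 789.1 with cAMP and at 346.0 and 122.1 in controls. Those groups did not overlap, but the control arrays differed from each other by about as much as the groups did, and the log2 difference of 1.41 ± 0.45 missed the threshold (adjusted p by limma = 0.0857). Cxcl2, a close relative of Cxcl1, was at 26.1 and 56.0 with cAMP and at 2.8 and 1.3 in controls, at least 2.69-fold higher. It was below the filter, and without that filter it passed (adjusted p by limma = 0.0428). Cxcl1, Cxcl2 and Cxcl3 have similar sequences, so their probe sets may share signal. Cxcl3 was at 26.3 and 24.0 with cAMP and at 21.7 and 3.7 in controls. Another probe set of Cxcl3 was at 24.6 and 3.7 with cAMP and at 2.9 and 2.4 in controls. The rest of its probe sets were below background on every array. Cxcr2, the receptor for these chemokines, did not exceed 1.4 with cAMP or 6.4 in controls. Cxcl10, induced by interferon, was at 98.7 and 188.2 with cAMP and at 101.2 and 41.3 in controls, so its groups overlapped. Cxcl16, a membrane-bound ligand of Cxcr6 that also acts as a scavenger receptor for oxidised lipoprotein, was at 123.2 and 191.6 with cAMP and at 105.8 and 52.7 in controls and did not pass (adjusted p by limma = 0.110). Ccl2, the monocyte attractant, was at 36 and 43.2 with cAMP and at 15.1 and 21.0 in controls (adjusted p by limma = 0.0748). Cxcl11 and Ccl5 did not pass either. Of the 16 CC chemokines 3 were tested, and 9 were at or below background on every array.

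Of the interleukins themselves Il24, Il18 and Il6 rose, each with control signals near or below background. Il24, a member of the interleukin-10 family, was at 128.5 and 209.5 on the cAMP arrays and at 10.2 and 4.7 on the control arrays, at least 11.6-fold higher. Its log2 difference was 2.95 ± 0.27 (adjusted p by limma = 0.000645). Il18, which drives interferon-gamma production in lymphocytes, was at 89.6 and 98.6 with cAMP and at 17.6 and 14.6 in controls, a log2 difference of 1.78 ± 0.20 (adjusted p by limma = 0.00154). Its soluble inhibitor Il18bp rose with it, at 387.9 and 343.9 with cAMP and at 106.4 and 58.4 in controls. For Il18bp the log2 difference was 2.0 ± 0.25 (adjusted p by limma = 0.00250). In each of these 3 genes the groups were well apart.

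Il6, which signals through the shared chain Il6st, was at 50.9 and 71.1 with cAMP and at 4.1 and 13.7 in controls, below background on both control arrays. It was at least 4.24-fold higher, with a log2 difference of 1.64 ± 0.27 (adjusted p by limma = 0.00774, and adjusted p = 0.0789 without cAMP replicate 2). The receptor chains did not pass. Il6st was at 462.2 and 489.1 with cAMP and at 436.4 and 407.0 in controls, a log2 difference of 0.17 ± 0.14, and its 3 other probe sets did not pass either. Il6r, the ligand-binding chain, was at 129.4 and 155.2 with cAMP and at 125.0 and 66.1 in controls (adjusted p by limma = 0.235). Il15, a growth factor of natural killer cells, was at 80.2 and 85.0 with cAMP and at 39.8 and 51.1 in controls and missed the threshold (adjusted p by limma = 0.0631). Il17b was at 12.6 and 9.4 with cAMP and at 30 and 29.2 in controls, at least 2.08-fold lower in the mean, and did not pass (adjusted p by limma = 0.0562). Il1a, which rat Sertoli cells are known to make, stayed near background, at 21.4 and 17.6 with cAMP and at 23.8 and 14.8 in controls. Of the 23 interleukins 16 were below the filter and 9 were at or below background on every array, Il2, Il10 and Il11 among them.

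**Figure D3:**
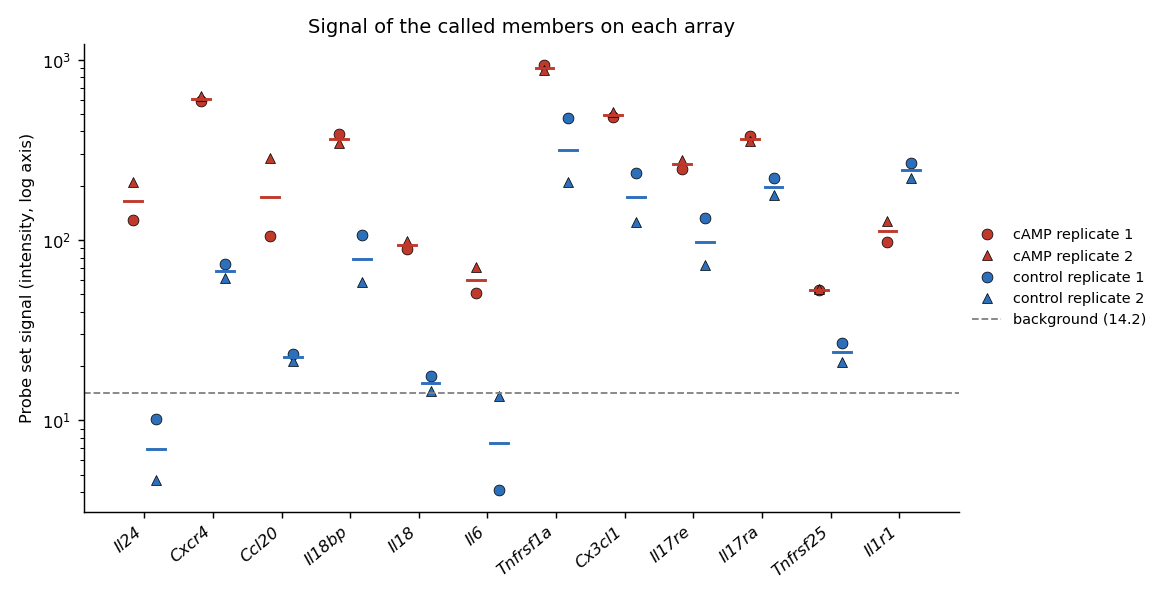
Signal (vertical, log axis) of the 12 members that passed, on cAMP arrays (red, left of each pair) and control arrays (blue, right), with circles for replicate 1, triangles for replicate 2 and bars for the geometric mean. The dashed line is the background of 14.2. The cAMP arrays lie above both control arrays for the first 11 members and below them for Il1r1.

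Promoter windows were searched for motifs because several members rose together. RefSeq promoter windows of the rat assembly GRCr8, from 250 bases before to 50 bases after the start of a gene, were matched by gene ID for 84 of the 112 members. They were searched on both strands for the full cAMP response element TGACGTCA, for its half-site TGACG, which the full element contains, and for the NF-kappaB consensus, here called the kappaB motif. The full element was in 1.91% of all 27457 promoters, the half-site in 22.0% and the kappaB motif in 7.60%. Of the 84 member promoters 1 held the full element (1.19%), 10 the half-site (11.9%) and 16 the kappaB motif (19.0%). Among the 37 promoters of members at or below background on every array, 5 held the kappaB motif (13.5%). The promoter of Il1r1, the member that fell, held a kappaB motif as well. Of the 9 promoters matched among the 11 members that rose, 1 held the full element, 2 the half-site and 2 the kappaB motif. The 3 windows with a match, those of Il6, Cxcr4 and Ccl20, are shown, and capitals mark the matches. The full element spans bases 89 to 96 of the Il6 window and the kappaB motif bases 183 to 192. The Cxcr4 window holds a half-site at bases 150 to 154, on the opposite strand, and the Ccl20 window a kappaB motif at bases 162 to 171, also on the opposite strand. They lie at chr4:5894526-5894825 (minus strand) for Il6, chr13:42634239-42634538 (minus strand) for Cxcr4 and chr9:91836909-91837208 (plus strand) for Ccl20. A match describes the letters in the window and is not evidence of binding.
Il6: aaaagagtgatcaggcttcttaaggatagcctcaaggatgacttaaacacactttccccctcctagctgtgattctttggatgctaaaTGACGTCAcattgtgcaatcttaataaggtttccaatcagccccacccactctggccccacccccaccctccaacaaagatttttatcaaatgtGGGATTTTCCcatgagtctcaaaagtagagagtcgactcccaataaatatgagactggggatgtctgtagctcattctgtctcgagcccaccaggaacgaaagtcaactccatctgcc
Cxcr4: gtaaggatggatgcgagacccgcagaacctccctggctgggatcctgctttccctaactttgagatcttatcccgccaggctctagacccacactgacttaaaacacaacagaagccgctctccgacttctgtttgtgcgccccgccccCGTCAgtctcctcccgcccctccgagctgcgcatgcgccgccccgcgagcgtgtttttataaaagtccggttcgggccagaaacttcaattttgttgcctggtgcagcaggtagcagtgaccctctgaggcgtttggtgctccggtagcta
Ccl20: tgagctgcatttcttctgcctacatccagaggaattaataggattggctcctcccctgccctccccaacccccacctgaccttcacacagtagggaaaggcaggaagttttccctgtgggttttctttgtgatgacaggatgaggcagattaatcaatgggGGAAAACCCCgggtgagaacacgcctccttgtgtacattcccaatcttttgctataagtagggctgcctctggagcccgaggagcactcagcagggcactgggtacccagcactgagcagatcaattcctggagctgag

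Among interleukin receptors, Il17ra and Il17re rose and Il1r1 fell. Il17ra is the shared signalling chain of the interleukin-17 receptors and Il17re pairs with it in epithelial cells. Il17re was at 247.4 and 279.2 with cAMP and at 132.2 and 72.9 in controls, a log2 difference of 1.28 ± 0.25 (adjusted p by limma = 0.0168). Its other probe set rose as well, by 1.37 ± 0.22. Il17ra was at 375.8 and 354.1 with cAMP and at 220.2 and 177.7 in controls, a log2 difference of 0.83 ± 0.16 (adjusted p by limma = 0.0168). Another chain, Il17rc, was at 19.0 and 30.4 with cAMP and at 6.9 and 6.2 in controls, below the filter. Without the filter Il17re was lost (adjusted p by limma = 0.0533).

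Il1r1, the signalling receptor of interleukin-1, was the member that fell. It was at 97.5 and 128.2 with cAMP and at 266.7 and 222.0 in controls, 2.18-fold higher in controls, with a log2 difference of -1.02 ± 0.19 (adjusted p by limma = 0.0142). The groups did not overlap. Its 2 other probe sets did not exceed 10.2 with cAMP or 8.9 in controls and carry no information on it. The decoy receptor Il1r2 was at 46.8 and 68.0 with cAMP and at 109.8 and 59.8 in controls, with overlapping groups. Il1rap, the accessory chain, was at 24.3 and 30 with cAMP and at 13.5 and 11.5 in controls, at least 1.90-fold higher in the mean, and did not pass (adjusted p by limma = 0.116). The antagonist Il1rn did not exceed 1.0 with cAMP or 1.4 in controls. Il1b was at 6.9 and 0.6 with cAMP and at 1.0 and 17.6 in controls. Of the other receptor chains Il10rb, at 326.1 and 362.0 with cAMP and at 274.7 and 128.3 in controls, did not pass (adjusted p by limma = 0.131), and Il3ra, Il4r and Il13ra2 did not pass either. In all, 24 interleukin receptor chains were on the array, of which 12 were tested.

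In the TNF family the receptors Tnfrsf1a and Tnfrsf25 rose and no ligand passed. Tnfrsf1a, the main receptor of TNF, was at 931.9 and 873.8 with cAMP and at 473.4 and 208.7 in controls. The control arrays differed more than 2-fold from each other, and the log2 difference was 1.47 ± 0.32 (adjusted p by limma = 0.0250, and adjusted p = 0.0801 without the filter). Tnfrsf25, a death-domain receptor of lymphocytes, was at 52.7 and 53.7 with cAMP and at 26.8 and 21.2 in controls, a log2 difference of 0.79 ± 0.20 (adjusted p by limma = 0.0429). It was lost without the filter as well (adjusted p by limma = 0.117). Tnf itself was at 32.7 and 40.6 with cAMP and at 12.2 and 1.2 in controls, at least 2.57-fold higher in the mean. This probe set of Tnf was below the filter, and without the filter it did not pass (adjusted p by limma = 0.0815). A second Tnf probe set, at 2.4 and 21.6 with cAMP and at 1.1 and 1.7 in controls, was below the filter too. Tnfrsf1b, the other TNF receptor, did not exceed 0.9 with cAMP or 1.3 in controls.

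Tnfrsf12a and its ligand Tnfsf12, also called TWEAK, were both lower in the mean with cAMP and did not pass. Tnfrsf12a was at 726.3 and 761.6 with cAMP and at 1446.7 and 763.1 in controls. Control replicate 1 alone stood apart from the other arrays, with a log2 difference of -0.49 ± 0.27 (adjusted p by limma = 0.283). Tnfsf12 was at 42.0 and 49.4 with cAMP and at 54.4 and 99.5 in controls (adjusted p by limma = 0.231). Of the 14 TNF receptor genes 10 and of the 7 ligands 5 were below the filter.

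Genes of the signalling pathways downstream were followed in lists drawn up from general knowledge. The lists were chosen with earlier results of these data known, so their shares only describe these data. In the list of NF-kappaB and TNF signalling 29 of 34 genes were tested, of which 3 rose, 0 fell by limma (0 also without the adjustment) and 26 did not pass, with a median log2 difference of 0.18. The 3 that rose were 10.3% of those tested, beside 8.27% of all named genes. Nfkb1, a subunit of NF-kappaB, was at 464.4 and 469.6 with cAMP and at 128.9 and 100.8 in controls, a log2 difference of 1.89 ± 0.17 (adjusted p by limma = 0.000611). Tnip1, which restrains the pathway, rose by 1.24 ± 0.19, and the adaptor gene Traf3 by 0.93 ± 0.20. With either cAMP array left out, only Nfkb1 passed in this list. Without control replicate 1 the list had 9 higher genes, with Bcl3, Birc3, Nfkbiz, Rela, Relb and Tnfaip3 added. In the interleukin-1 and Toll-like receptor list 2 of 9 tested genes rose (22.2%, beside the same 8.27%), 0 fell by limma (0 also without the adjustment) and 7 did not pass, with a median of 0.26. Irak2 was at 45.6 and 42.7 with cAMP and at 13 and 9.5 in controls, at least 3.11-fold higher (adjusted p by limma = 0.0121). Irak3, an inhibitory member of the IRAK family, rose by 0.90 ± 0.22. Both were lost without cAMP replicate 1 and without cAMP replicate 2, and Irak3 also without control replicate 2. Without control replicate 1 there were 4, with Irak1 and Myd88 added.

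In the JAK-STAT list 3 of 18 tested genes rose, 1 fell and 14 did not pass, with a median of 0.05. Those that rose were 16.7% of the list, beside 8.27% of all named genes, and the 1 that fell 5.56%, beside 7.16%. Stat3, which relays Il6 family signals, was at 881.3 and 999.9 with cAMP and at 222.0 and 366.7 in controls, a log2 difference of 1.66 ± 0.23 (adjusted p by limma = 0.00377). The kinase gene Jak2 rose by 0.95 ± 0.19 and the feedback inhibitor gene Socs3 by 1.03 ± 0.24, while Jak1 fell by 0.77 ± 0.12 on the log2 scale. Stat3 alone of these passed without cAMP replicate 1 and without cAMP replicate 2, and Socs3 was lost without control replicate 2 too. Of 26 tested cytokines and receptors outside the family rule 7 rose (26.9%, beside 8.27%), 1 fell (3.85%, beside 7.16%) and 18 did not pass, with a median of 0.27. Clcf1, a cytokine that acts through Il6st, was at 145.2 and 146.4 with cAMP and at 47.2 and 21.6 in controls (log2 difference 1.73 ± 0.27, adjusted p by limma = 0.00607). The others that rose were Ackr3, Ccrl2 (0.97 ± 0.25), the interferon-gamma receptor chain Ifngr2 (0.85 ± 0.21), Tslp (0.79 ± 0.21), Eda (0.78 ± 0.20) and Kitlg, the ligand of the receptor Kit on germ cells (0.58 ± 0.14). Mif, the macrophage migration inhibitory factor, was at 1229 and 1070 with cAMP and at 2245 and 2124 in controls and fell by 0.92 ± 0.13 on the log2 scale (adjusted p by limma = 0.00375). All 7 that rose were lost without cAMP replicate 1 and without cAMP replicate 2, and Mif was lost in the second case. Without control replicate 2, 4 higher genes were left, with Ccrl2, Eda and Tslp lost, and without control replicate 1, 2 were lower. Without the filter Ccrl2, Eda, Ifngr2, Kitlg and Tslp were lost from this list, as were Traf3, Irak3 and Socs3 from the lists before it. A pseudocount of 1 lost Eda and Tslp, and eBayes without an intensity trend lost Ccrl2, Ifngr2, Kitlg and Tslp.

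Genes that cytokines are known to induce moved in both directions. Of 14 tested 4 rose (28.6%, beside 8.27% of all named genes), 2 fell (14.3%, beside 7.16%) and 8 did not pass, with a median of 0.09. Lcn2, an iron-binding acute-phase protein, was at 1517 and 2426 with cAMP and at 187.9 and 63.5 in controls, a log2 difference of 3.93 ± 0.42 (adjusted p by limma = 0.00128). Tnfaip6, a hyaluronan-binding protein first found as a TNF-induced gene, was at 411.3 and 387.0 with cAMP and at 25.4 and 18.0 in controls, with a difference of 3.47 ± 0.19 (adjusted p by limma = 9.54e-05). Cebpb, a transcription factor of the acute-phase response, rose by 2.12 ± 0.28, and Sod2, the mitochondrial superoxide dismutase, by 1.61 ± 0.23. The plasma proteins ceruloplasmin (Cp, -1.45 ± 0.20) and A2m (-0.91 ± 0.24) fell. Lcn2, Tnfaip6, Cebpb, Sod2 and Cp passed whichever array was left out. A2m was close to the threshold (adjusted p by limma = 0.0492). It was lost without cAMP replicate 1, cAMP replicate 2 or control replicate 1, with a pseudocount of 1, with quantile normalization, with eBayes without an intensity trend and without the filter, and passed in 4 of 11 alternatives. The number higher was 7 without control replicate 1, and the number lower was 4 without control replicate 2, with Ier3 and Vcam1 added. The plot of the related lists shows most of their genes close to 0, with a few far to the right.

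**Figure D4:**
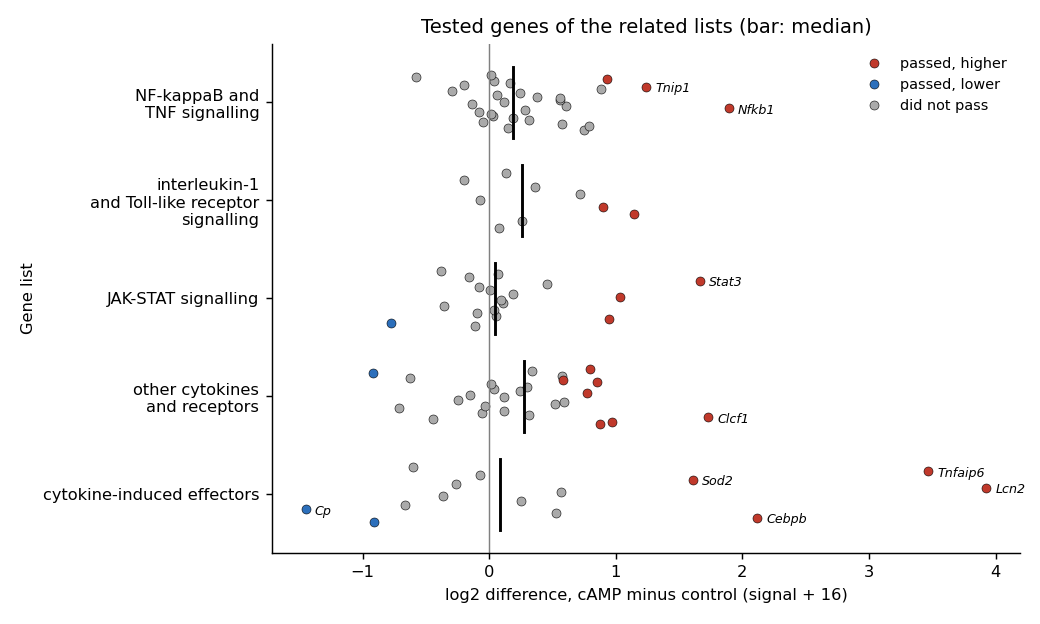
The log2 difference (cAMP minus control, log2 of signal + 16) of each tested gene in 5 lists related to cytokine signalling, with black bars for list medians between 0.05 and 0.27. Genes that passed are red (higher) or blue (lower), and the right-hand end is taken by Lcn2 (3.93) and Tnfaip6 (3.47).

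**Figure D5:**
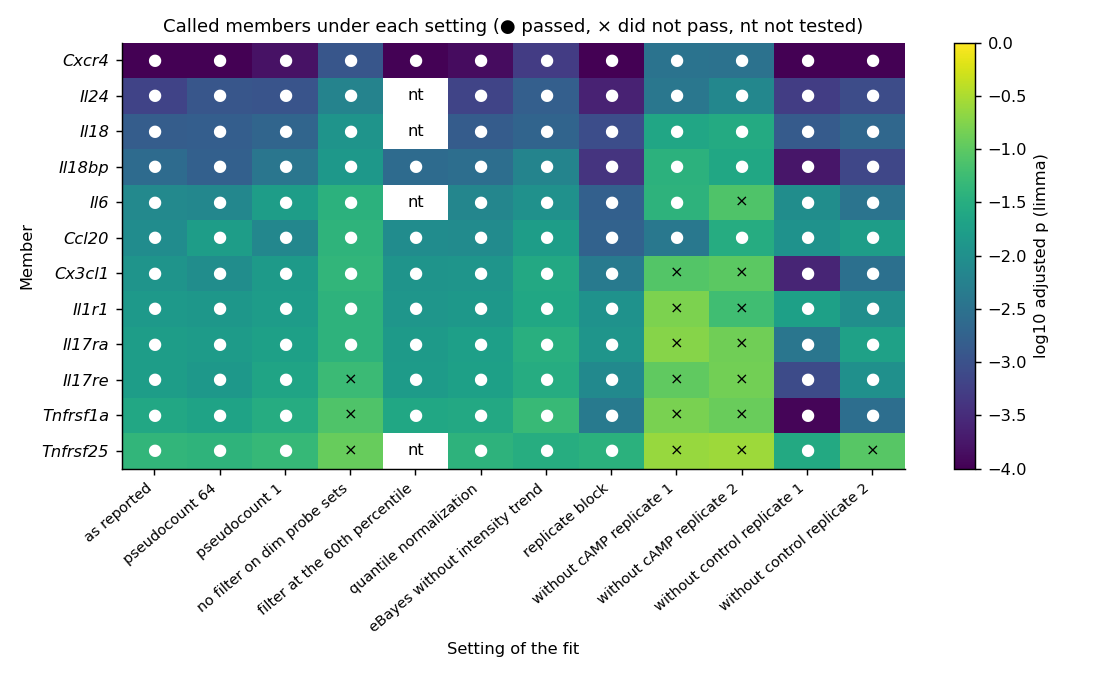
Adjusted p (limma, colour on a log10 scale) of the 12 members that passed, under the reported fit and 11 other settings of it. White dots mark a pass, black crosses a miss, and nt a member under the stricter filter. Cxcr4, Ccl20 and Il18bp passed in every column, and the crosses gather in the columns that leave out a cAMP array.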

How the data were processed

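Biotin-labelled cRNA of 4 samples was hybridised to one-colour Affymetrix rat arrays, per the labels' protocols. The deposited values are linear intensities, 1 per probe set, and the submitters' processing notes name GCOS and MAS5 without versions or settings. The mean without the lowest and highest 2% of values was equal on the 4 arrays, so the authors had scaled them before deposit. Probe sets with 1 symbol in the platform annotation, 20832 of 31099, named the genes, and all 112 members kept their symbol in RefSeq (GRCr8).

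From the intensities log2(signal + 16) was computed, which understates changes of dim genes. Probe sets other than the 57 controls were tested if their mean log2 value reached the 40th percentile, 5.10. The groups were compared in limma 3.58.1 under R 4.3.3 (lmFit, eBayes with intensity trend, two-sided, Benjamini-Hochberg over 18625 probe sets, threshold 0.05), which called 1358 probe sets higher and 1191 lower. "At least N-fold" divides the geometric mean of the brighter pair by that of the pair at or below background, its values raised to 14.2. Members were named if they passed, if they differed by at least 1 (log2) without overlap, if they were among the 8 with the highest mean, or, by values, if above background. The members and lists were chosen with earlier results of these data known. The fit was tested on 10 simulated data sets with 200 changed probe sets each, fewer than were called here. It recovered 17.8% of 2-fold and 80.9% of 4-fold changes on the log2(signal + 16) scale. Of its calls there 6.51% were false. A difference of about 2-fold that did not pass is therefore not evidence of no change. Alternatives were another pseudocount, filter, normalization or variance model, a replicate block, and leaving out each array.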

Additional observations from a re-analysis of the deposited data

How the results depend on the processing

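All values rest on 2 arrays per group, and members near the background of 14.2 have no measurable fall. With 3 arrays the lone array of a group is assumed to vary like the other group. The 12 members that passed did not change direction under any of the alternatives run, and Cxcr4, Ccl20 and Il18bp passed under all of them. Il24 and Il18 passed wherever they were tested, which they were not with the filter at the 60th percentile. That filter left 19 members tested and 7 higher, with Il24, Il18, Il6 and Tnfrsf25 not tested. The count of members was 13 higher with a pseudocount of 64, with Tnf (0.51, adjusted p by limma = 0.0234) and Cxcl2 added, and 9 higher without the filter. It was 2 lower with eBayes without an intensity trend. With the replicate number as a block, 12 members were higher and 2 lower, Il15 and Il13ra2 being added. The labels give the groups shared numbers but no shared animal or day, and the deviations of replicate 1 in both groups correlated at 0.163 across probe sets, so the numbers were not used as pairs. Leaving out 1 array gave between 5 and 16 members higher and between 0 and 3 lower. Over all probe sets the same gave between 408 and 2419 higher and between 305 and 2371 lower, and no filter gave 873 and 725. Across single-array omissions the NF-kappaB list had between 1 and 9 higher. The interleukin-1 list had between 0 and 4 higher, and 1 without the filter. The JAK-STAT list had between 1 and 4 higher and between 0 and 1 lower. The list of other cytokines had between 0 and 8 higher and between 0 and 2 lower, and 2 higher without the filter. Where a list of these had 0 higher by limma, without a cAMP array, the unadjusted test at 0.05 gave 1 or 2 higher for the interleukin-1 list and 6 or 7 for the other cytokines. The effector list had between 4 and 7 higher and between 1 and 4 lower, and 1 lower without the filter. For 4 members that did not pass the sign turned when single arrays were left out: Il11ra1 lay between -0.42 and 0.085, Tnfrsf21 between -0.014 and 0.31, Il1a between -0.17 and 0.20 and Il12b between -0.23 and 0.32. The cause of these changes was not tested, apart from the smaller number of arrays or genes that an alternative has by construction.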
